A study of Mus musculus with 4 samples.

Results

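Car6 (ENSMUSG00000028972), Scgb2b27 (ENSMUSG00000066584), Serpinb8 (ENSMUSG00000026315), Smpdl3b (ENSMUSG00000028885), Galnt15 (ENSMUSG00000021903) and Clic3 (ENSMUSG00000015093) are 6 of the 32285 genes counted in single cells of mouse mammary tumors. They were chosen by their measured levels, because earlier sums over the tumor epithelium placed both Frmd8-deleted libraries above both control libraries. The genotype difference in epithelial sums is therefore given as a description, with no test. The choice did not use the levels outside the epithelium. Nor did it use how often a gene was found in the same cell as the gene a, called nonagouti here. It also did not look at which epithelial cells carried each gene. The spread of the UMIs (unique molecular identifiers, each standing for 1 captured RNA molecule) over cells was not looked at either. Levels in single epithelial clusters are still parts of the sums used for the choice, so they are a description.

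The tumors grew in mice that carried the PyMT oncogene under the MMTV promoter, which is active in mammary epithelium, and were collected at the endpoint of 17 to 18 weeks, dissociated and sorted by flow cytometry. The floxed and PyMT lines were on a C57BL/6 background, and that of the Cre line was not given in the sources used here. The control group, MMTV-Cre-; Frmd8fl/fl; PyMT (Cre-), gave replicates 1 and 3, and the deleted group, MMTV-Cre+; Frmd8fl/fl; PyMT (Cre+), gave replicates 2 and 4. Both groups carried the floxed Frmd8 alleles and the PyMT transgene, and Cre came from the same MMTV promoter, so deletion was limited to cells in which that promoter was active. The series describes 4 tumors for the 4 libraries, which are taken as 1 mouse each although no label ties them to animals, and the 10x Genomics 3' v3 chemistry was used. With 2 libraries per group an exact permutation test of a single value cannot reach an unadjusted p of 0.05. The Cre+ mice of the study were yellow and the Cre- mice black, and nonagouti is the gene that makes the yellow coat pigment signal.

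After barcodes under 1000 UMIs or over 20% mitochondrial UMIs were removed, the libraries held 4922 to 7123 cells and 107848230 to 134882211 UMIs, with a median of 12455 to 13072.5 UMIs per cell. Epithelial cells numbered 2466 and 2610 in the Cre- libraries and 2598 and 3462 in the Cre+ libraries, and their median depth was 23080.5 and 17079.5 UMIs in Cre- against 13129 and 11684 UMIs in Cre+. Frmd8 was at 24.0 and 24.1 CPM (UMIs of the gene per 1e+06 UMIs of the sum) in Cre- epithelium and at 5.62 and 10.0 CPM in Cre+ epithelium. The deleted exons are internal, so UMIs from the 3' end need not fall with the protein. The 8 listed epithelial markers summed to 5350 to 10117 CPM in epithelial cells and to 157 to 381 CPM in the other named cells. The clusters were named with these markers, so the sums do not test the label. All 7 macrophage markers were also found in the epithelial sums, at 78.9, 223, 203 and 262 CPM in Cre- replicates 1 and 3 and Cre+ replicates 2 and 4. Replicate 4 was deposited as all barcodes from another Cell Ranger version, whose part in a Cre+ value cannot be told apart from that mouse. Library pairs shared 6 to 16 cell barcodes.

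The members do unlike work. Car6 is the secreted carbonic anhydrase of saliva and milk, an enzyme that interconverts carbon dioxide and bicarbonate. Scgb2b27 encodes a secretoglobin of the androgen-binding protein beta group, small secreted proteins that pair with an alpha partner such as Scgb1b27. Its gene cluster holds near-identical copies, so its counts are uncertain. Serpinb8 is an intracellular clade B serpin that inhibits furin-type proteases. Smpdl3b is a lipid-anchored phosphodiesterase of the sphingomyelinase family at the cell surface, Galnt15 belongs to the enzymes that start mucin-type O-glycosylation, and Clic3 belongs to the chloride intracellular channel family. Mammary epithelium is built of alveolar and hormone-sensing luminal cells and of basal cells, and squamous cells can arise in its tumors.

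The RefSeq table held a promoter window for 6 of 6 members. The 250 bases before the start site are shown for Car6 and Scgb2b27, the pair that was found most often in the same cells, and for Serpinb8 and Clic3, which both had a high level in squamous cells. The windows are from build GRCm38.p6 and lie at chr4:150201136-150201385 on the minus strand for Car6, chr7:34013943-34014192 on the minus strand for Scgb2b27, chr1:107589756-107590005 on the plus strand for Serpinb8 and chr2:25456593-25456842 on the plus strand for Clic3. Capitals mark a motif match, and each sequence is written 5' to 3' on the strand of its gene.
Car6: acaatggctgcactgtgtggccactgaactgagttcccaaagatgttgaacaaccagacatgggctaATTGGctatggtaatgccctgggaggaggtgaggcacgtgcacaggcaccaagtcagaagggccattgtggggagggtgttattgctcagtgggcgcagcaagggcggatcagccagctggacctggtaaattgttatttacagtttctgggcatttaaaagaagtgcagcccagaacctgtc
Scgb2b27: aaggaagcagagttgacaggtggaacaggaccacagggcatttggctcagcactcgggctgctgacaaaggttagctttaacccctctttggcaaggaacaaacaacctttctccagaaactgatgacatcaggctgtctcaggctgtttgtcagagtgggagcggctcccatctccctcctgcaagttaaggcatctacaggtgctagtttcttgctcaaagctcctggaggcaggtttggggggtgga
Serpinb8: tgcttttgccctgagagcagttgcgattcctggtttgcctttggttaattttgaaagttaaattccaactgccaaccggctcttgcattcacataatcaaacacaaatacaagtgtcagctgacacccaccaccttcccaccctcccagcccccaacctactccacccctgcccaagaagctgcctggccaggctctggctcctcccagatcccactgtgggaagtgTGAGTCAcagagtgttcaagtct
Clic3: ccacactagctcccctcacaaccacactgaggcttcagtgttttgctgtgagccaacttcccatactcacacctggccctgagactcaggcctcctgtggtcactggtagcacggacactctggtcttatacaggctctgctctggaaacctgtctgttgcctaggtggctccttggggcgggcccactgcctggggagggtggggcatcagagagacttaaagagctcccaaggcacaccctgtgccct

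The CCAAT box, searched on both strands, matched 2 of 6 member windows, Car6 at 183 bases before the start on the reverse strand and Smpdl3b at 66 bases. It was in 33.8% of 32851 windows of the same length. The AP-1 letters TGANTCA matched Serpinb8 at 23 bases and Galnt15 at 58 bases before the start, and were in 6.75% of all windows. No member window held TATAAA (12.4% of all windows), the STAT letters TTCNNNGAA (7.02%), the hormone receptor half-site TGTTCT (16.1%) or the forkhead letters TGTTTAC (3.17%). These matches describe letters and not binding.

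In the epithelial sums, 5 of 6 members had both Cre+ libraries above both Cre- libraries. Among all 16631 genes tested in these sums, 14.6% had that order and 3.35% had it with a difference of at least 2-fold. The members were chosen on this contrast, so nothing is read from their count. In a sum, more cells with the gene and more RNA per cell cannot be told apart.

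Car6 stood at 44.3 and 43.1 CPM in the Cre- libraries and at 132 and 547 CPM in Cre+ replicates 2 and 4. The means were 43.7 ± 0.873 against 339 ± 293 CPM (SD, n = 2 each), a 7.77-fold ratio in which replicate 4 was the high library. Scgb2b27 was at 166 and 157 CPM in Cre- and at 605 and 1900 CPM in Cre+, or 162 ± 6.30 against 1252 ± 916 CPM, and again replicate 4 was the highest. The ratio of the lowest Cre+ to the highest Cre- library was 2.98 for Car6, the nearest to 1 of the ordered members, and 3.64 for Scgb2b27.

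Smpdl3b had 3.41 and 2.41 CPM in Cre- and 10.7 and 27.2 CPM in Cre+, with means of 2.91 ± 0.707 and 18.9 ± 11.7 CPM. Serpinb8 had 2.10 and 2.95 CPM in Cre- and 12.3 and 10.1 CPM in Cre+, with means of 2.52 ± 0.598 and 11.2 ± 1.59 CPM. Galnt15 had 1.11 and 0.709 CPM in Cre- and 5.49 and 4.05 CPM in Cre+, with means of 0.912 ± 0.286 and 4.77 ± 1.02 CPM. For Serpinb8 and Galnt15 the Cre+ libraries lay close together, and replicate 2 was the higher. The Galnt15 levels rested on 95, 52, 338 and 309 UMIs, with Poisson intervals of 0.902 to 1.36 and 0.530 to 0.930 CPM for the Cre- levels, which cover counting error alone.

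Clic3 was out of order over all epithelial cells. It was at 4.47 and 0.273 CPM in Cre- and at 2.99 and 4.77 CPM in Cre+, so the lowest Cre+ library was 0.668 times the highest Cre- library, just outside the rule. Cre- replicate 1 held 381 Clic3 UMIs, of which 96.9% were in hormone-sensing cells. Without the hormone-sensing cluster the levels were 0.178 and 0.110 CPM in Cre- against 2.71 and 4.77 CPM in Cre+. That cluster was left out after these Clic3 values had been seen, so the order without it is no support. Without the squamous cluster Clic3 was at 0.581 CPM in Cre+ replicate 4 and Serpinb8 at 4.28 CPM.

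**Figure D1:**
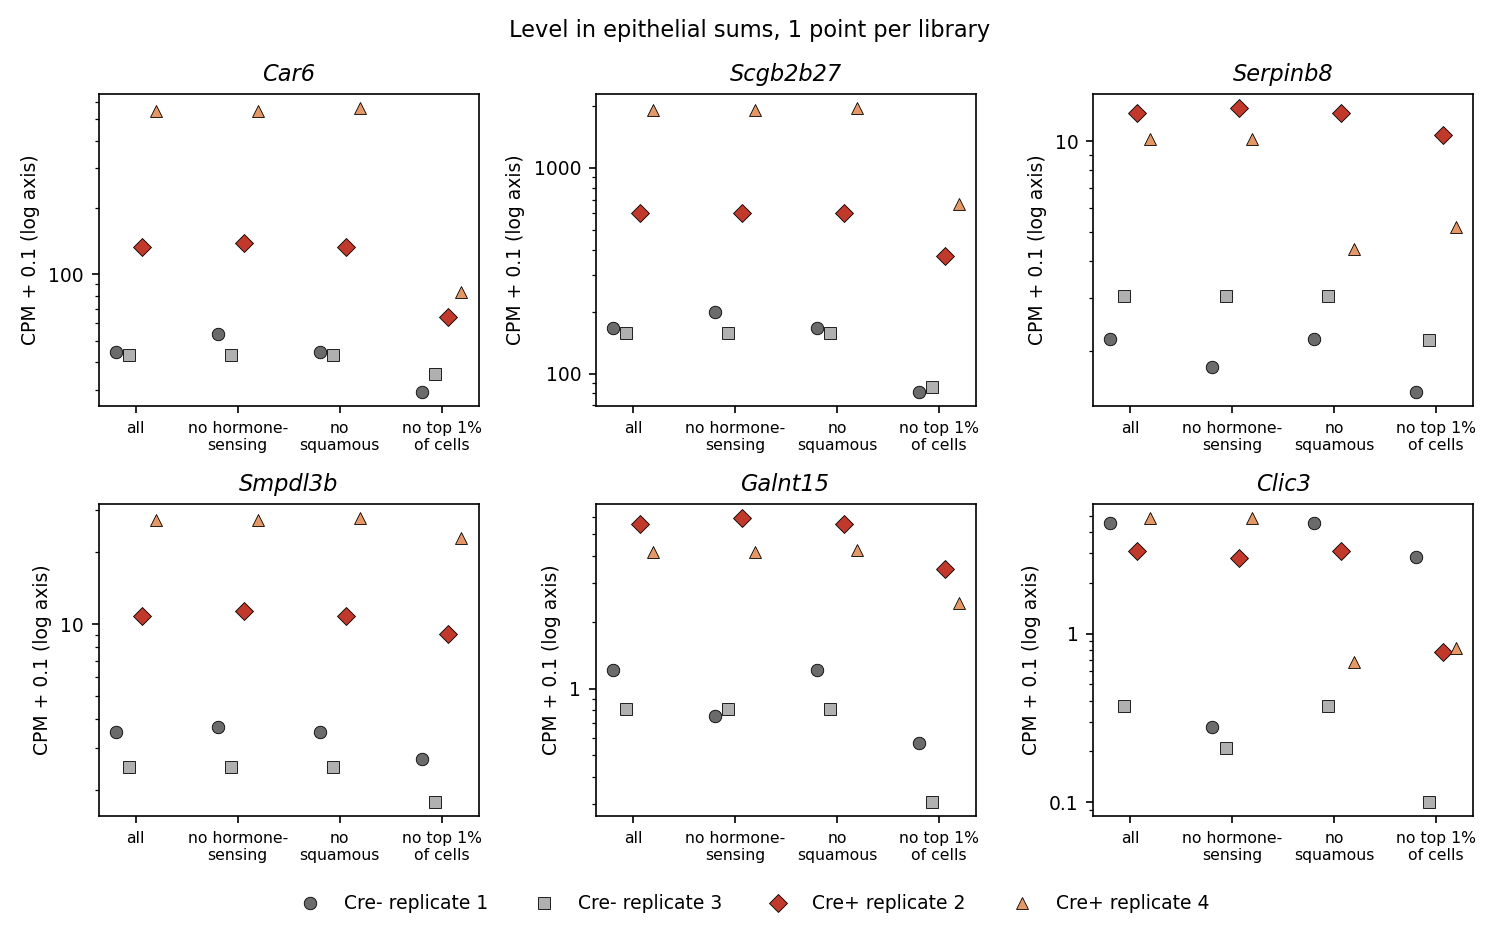
Level of each member in epithelial sums as CPM + 0.1 on a log axis, 1 point per library, over all epithelial cells, without the hormone-sensing cluster, without the squamous cluster, and without the 1% of cells with most UMIs of that gene. Both Cre+ libraries lie above both Cre- libraries in every set of cells for 5 members. Clic3 has that order in the set without hormone-sensing cells, a set chosen after its values were seen.

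How far UMIs were held by few cells differed between the members. The 1% of epithelial cells with most Car6 UMIs, 25 to 35 cells per library, carried 35.5% and 21.1% of the Car6 UMIs in Cre- and 52.5% and 85.3% in Cre+. In Cre+ replicate 4, 1 cell had 5834 Car6 UMIs, 14.0% of the total of 41752. Without these cells the Car6 ratio of means was 2.28 in place of 7.77, with the lowest Cre+ library at 64.2 CPM and the highest Cre- library at 35.2 CPM. The same step left Scgb2b27 at a 6.22-fold ratio, Serpinb8 at 4.47, Smpdl3b at 7.42 and Galnt15 at 8.50, and turned Clic3 from 1.63 to 0.508. The top 1% of cells carried 77.7% and 85.2% of the Clic3 UMIs in Cre+, and 39.9% and 100% in Cre-. For Smpdl3b the top 1% carried 19.9% and 20.8% in Cre+, and 26.1% and 32.8% in Cre-.

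Cell shares were compared after each epithelial cell was thinned to 2000 UMIs, which left 2300 and 2356 Cre- cells and 2445 and 2870 Cre+ cells and removed 153 to 592 shallower cells per library. Car6 was then found in 5.35% and 7.13% of Cre- cells and in 8.02% and 7.63% of Cre+ cells, so the share of cells differed far less than the CPM. At full depth the Car6 shares were 27.4% and 32.9% in Cre- and 25.4% and 22.3% in Cre+, the opposite order. Scgb2b27 was found in 10.2% and 14.6% of thinned Cre- cells and in 24.4% and 20.7% of thinned Cre+ cells. Macrophages, which should lack Scgb2b27, had it in shares of 0.47% and 0.76% in Cre- and 2.15% and 5.04% in Cre+ after the same thinning. Their Car6 shares were 0.24% and 0.85% in Cre- and 6 of 1350 and 31 of 2063 cells in Cre+, though Car6 was also present in monocytes, as given with the lineages. Smpdl3b was in 0.39% and 0.42% of Cre- cells against 1.96% and 3.34% of Cre+ cells, Serpinb8 in 0.35% and 0.59% against 2.58% and 1.64%, and Galnt15 in 0.30% and 0.17% against 1.15% and 0.91%. Galnt15 was in 1 of 1350 thinned macrophages of Cre+ replicate 2 and in none of the other libraries. Clic3 was found in 0.48% and 0% of thinned Cre- cells (0 of 2356 in replicate 3, which allows up to 0.127% of cells with a UMI at this depth, while 11 of 2610 had one at full depth) and in 0.37% and 0.73% of thinned Cre+ cells.

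The epithelium was split into clusters without using the members or nonagouti, and without integration over the libraries. Many clusters came nearly whole from 1 library. Cluster 1, of which 1190 of 1202 cells were from Cre+ replicate 4, had Car6 at 869 CPM, Scgb2b27 at 2880 CPM and Smpdl3b at 34.1 CPM. It held 97.7%, 93.2% and 77.2% of that library's epithelial UMIs of the 3 genes. Its cells were deep, at 2.55 times the epithelial median of their library, and it also held 79.6% for Galnt15, 75.0% for Frmd8 and 77.3% for nonagouti. The cluster held the larger part of all epithelial UMIs of that library, so high shares follow in part from its size. Over that library's whole epithelium Car6 was at 547 CPM, Scgb2b27 at 1900 CPM and Smpdl3b at 27.2 CPM. Galnt15 was at 5.24 CPM in the cluster and at 4.05 CPM over the whole epithelium. In the same library cluster 10 had Scgb2b27 at 4000 CPM and cycling cells had Smpdl3b at 35.9 CPM. Cluster 10 was unnamed and shallow, at 0.114 times the epithelial median depth, and macrophage genes were among its leading genes. Barcodes with at most 100 UMIs in that library had Scgb2b27 at 864 CPM, and the part of free RNA in cluster 10 was not tested. Cluster 11, of which 421 of 433 cells were from Cre+ replicate 2, had Galnt15 at 16.2 CPM, Serpinb8 at 22.9 CPM and Smpdl3b at 15.1 CPM. Neither cluster 1 nor cluster 11 passed the marker rule for a cell type name. The squamous cluster, 85 cells of Cre+ replicate 4, had Clic3 at 135 CPM in 63.5% of its cells and Serpinb8 at 191 CPM in 84.7% of its cells. It held 88.2% of the Clic3 UMIs and 58.8% of the Serpinb8 UMIs of that library's epithelium. Clic3 was thus carried by hormone-sensing cells in Cre- replicate 1 (20.9 CPM, 407 cells) and by squamous cells in Cre+ replicate 4, a library with no cell in the hormone-sensing cluster. In Cre+ replicate 2, 124 of its 184 epithelial UMIs were in alveolar cells, 45 of them in 1 cell, and 15.8% were in hormone-sensing cells.

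In 10 clusters at least 50 cells came from both a Cre- and a Cre+ library. Cre+ lay above Cre- in 10 of these for Scgb2b27, 9 for Galnt15, 8 for Serpinb8, 8 for Smpdl3b, 7 for Clic3 and 6 for Car6. In alveolar cluster 4, Cre- replicate 1 had Car6 at 73.1 CPM against 465 CPM in Cre+ replicate 2, and Scgb2b27 at 188 against 1401 CPM. In the cycling cluster 6, Cre- replicate 3 had Car6 at 4.51 CPM against 118 CPM in Cre+ replicate 4, and Smpdl3b at 2.26 against 35.7 CPM. Car6 went the other way in cluster 7, with 55.5 CPM in Cre- replicate 1 against 31.1 CPM in Cre+ replicate 2. These are values of 1 or 2 libraries a side and were not tested. They are parts of the epithelial levels on which the genes were chosen, so nothing is read from the counts. The share of all genes with that order within clusters was not counted. Some of the counted levels were near the floor, such as Galnt15 in cluster 4 at 0.278 CPM in Cre+ against 0.155 CPM in Cre-.

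**Figure D2:**
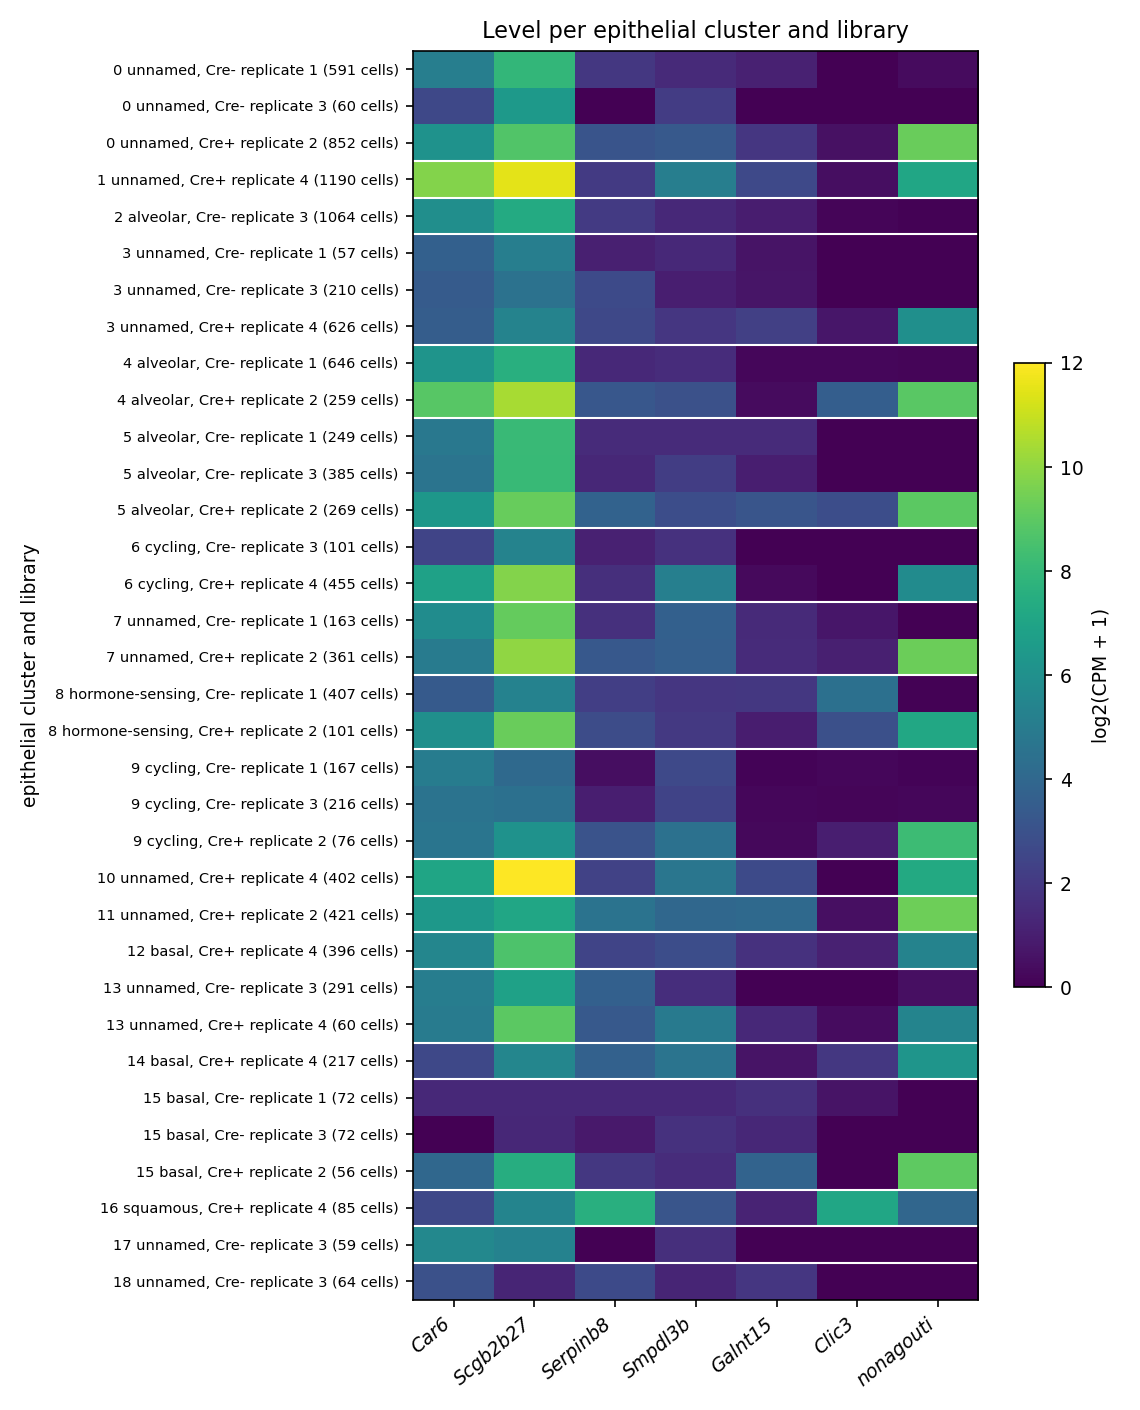
Level of each member and of nonagouti as log2(CPM + 1), by color, in each epithelial cluster (rows, grouped by cluster between white lines) and library with at least 50 cells. Car6 and Scgb2b27 are highest in rows from the Cre+ libraries, and Clic3 and Serpinb8 are highest in the squamous cluster of Cre+ replicate 4.

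The members differed in the pattern over the lineages of the tumor. Car6, Scgb2b27 and Clic3 were carried by the epithelium, Serpinb8 by macrophages and monocytes as well, and Galnt15 by endothelial cells and fibroblasts as well, while Smpdl3b was spread over the epithelium, macrophages and monocytes. In the comparison of epithelial with all other named cells, fitted over both genotypes with edgeR, 26.5% of 16446 genes were higher and 27.8% lower in the epithelium at an adjusted p under 0.05. The lineages were named by clusters of the same cells, so the fit compares cells that the clustering itself had separated, though without the members. Its epithelial sums include the Cre+ sums on which the members were chosen, so for the members the fit is a description. Scgb2b27 was higher by 5.12 on the log2 scale (SE 0.67, adjusted p = 0.00050), Clic3 by 4.79 (SE 1.08, adjusted p = 0.00718) and Car6 by 4.41 (SE 0.79, adjusted p = 0.00236). Serpinb8 was lower in the epithelium by -2.02 (SE 0.43, adjusted p = 0.00544) and Galnt15 by -1.88 (SE 0.67, adjusted p = 0.0469). The Galnt15 call was lost with the replicate block (adjusted p = 0.0742), without the hormone-sensing cluster (adjusted p = 0.0533) and without Cre- replicate 1, Cre- replicate 3 or Cre+ replicate 2 (adjusted p = 0.215, 0.198 and 0.0590). The epithelial Galnt15 level was 1.14 times the non-epithelial level in Cre+ replicate 4 and 0.0957 to 0.675 times in the other libraries. Smpdl3b differed by 0.11 (SE 0.64, adjusted p = 0.900).

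Car6 had at least 90.7% of its UMIs in the epithelium of each library, Scgb2b27 98.1% to 98.8% and Clic3 94.8% to 100%. Serpinb8 had 27.7% and 16.7% of its UMIs in the epithelium in Cre- and 38.9% and 44.3% in Cre+, while macrophages and monocytes held 52.7% to 78.1%. Its macrophage level was 28.7 and 38.2 CPM in Cre- and 45.1 and 19.9 CPM in Cre+, and its monocyte level was 27.7 and 44.8 CPM in Cre- and 41.8 and 39.5 CPM in Cre+. The groups overlapped in both lineages. When epithelial clusters led by genes of other lineages were left out, the lowest Cre+ library had epithelial Serpinb8 at 10.2 CPM. The highest Cre- library had it at 2.60 CPM. That set of cells was chosen after seeing the data, and the gene was chosen on this order, so the order is no support. The part of macrophages and monocytes in the epithelial Serpinb8 level was not tested.

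Galnt15 had 22.8% and 12.6% of its UMIs in the epithelium in Cre- and 47.3% and 59.7% in Cre+. Endothelial cells had it at 58.6 and 35.8 CPM in Cre- and 48.1 and 36.4 CPM in Cre+, with overlap. Fibroblasts had it at 20.6 and 20.5 CPM in Cre- and 17.2 and 52.9 CPM in Cre+, where replicate 4 was high. The 5 endothelial markers summed to 10.3 and 10.2 CPM in Cre- epithelium and to 12.1 and 3.51 CPM in Cre+ epithelium, and the 6 fibroblast markers to 119, 102, 155 and 165 CPM in Cre- replicates 1 and 3 and Cre+ replicates 2 and 4. The part of such cells in the epithelial Galnt15 level was not tested.

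Smpdl3b was found in monocytes at 14.3 and 8.23 CPM in Cre- and 8.79 and 33.1 CPM in Cre+, and in macrophages at 6.19 and 7.46 CPM in Cre- and 3.88 and 16.8 CPM in Cre+. Replicate 4 was the highest library in both lineages. Car6 reached 10.1 and 54.3 CPM in Cre- monocytes and 38.9 and 16.3 CPM in Cre+ monocytes. Scgb2b27 was at 5.04 and 1.97 CPM in Cre- monocytes and at 9.73 and 42.9 CPM in Cre+ monocytes. Car6 was thus above Scgb2b27 in monocytes of both Cre- libraries and of Cre+ replicate 2, and below it in Cre+ replicate 4. In the epithelium of each library Scgb2b27 was the higher gene. The monocytes of Cre- replicate 3 had 165 Car6 UMIs and 6 Scgb2b27 UMIs, and its epithelium had 3159 and 11539. The part of free RNA in the monocyte levels was not tested.

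**Figure D3:**
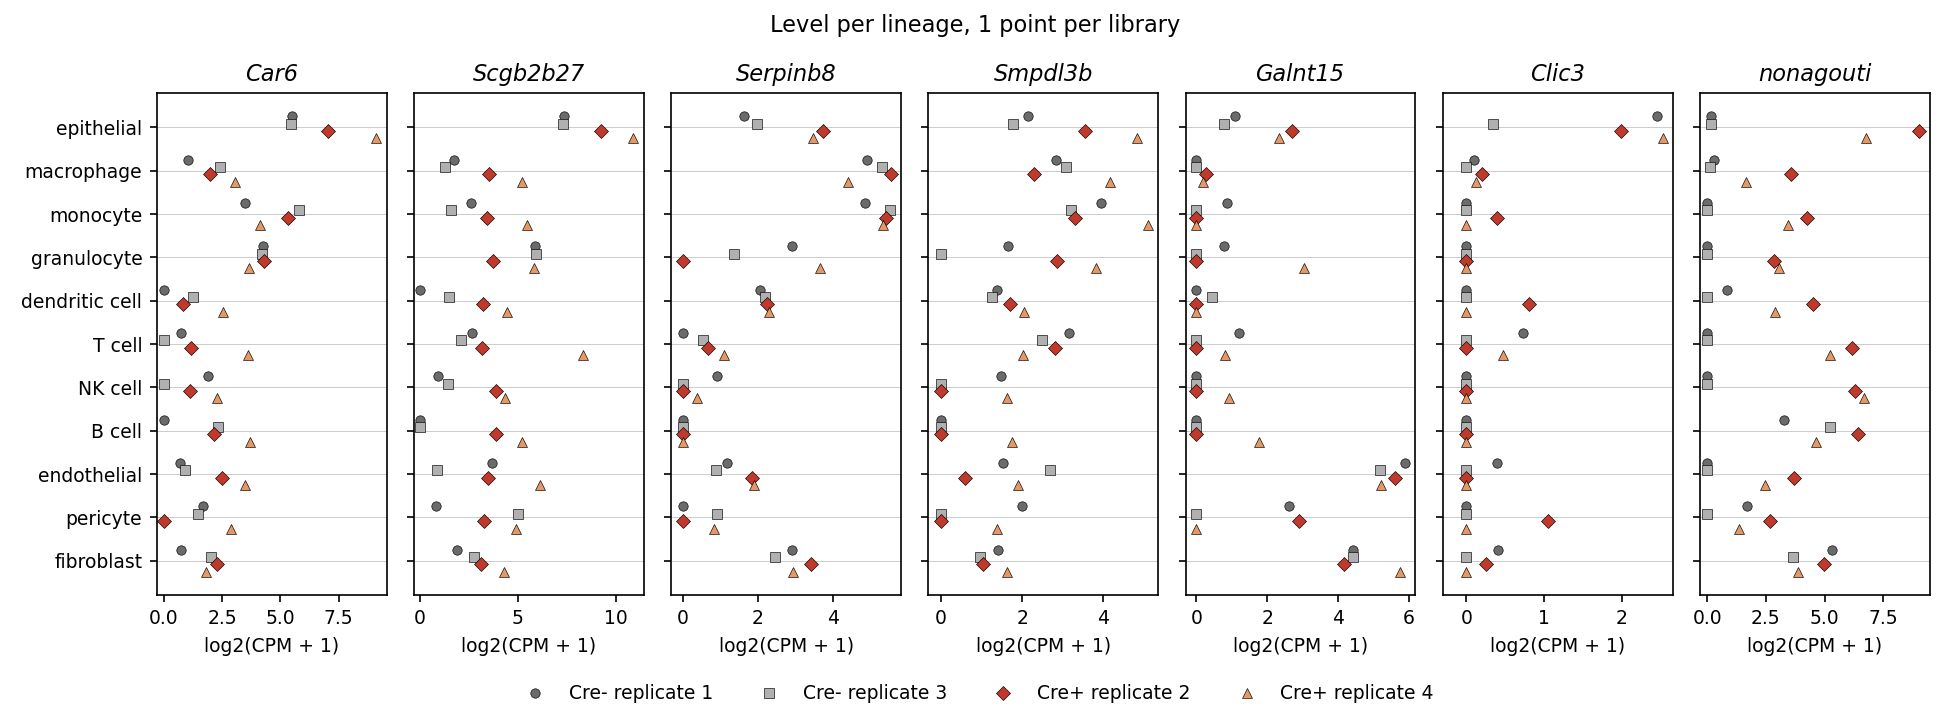
Level of each member and of nonagouti as log2(CPM + 1) in each lineage, 1 point per library. Serpinb8 is highest in macrophages and monocytes and Galnt15 in endothelial cells or, in Cre+ replicate 4, fibroblasts, while Car6 and Scgb2b27 are highest in the epithelium of Cre+ replicate 4.

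Outside the epithelium 1 of 5 members tested, Scgb2b27, had both Cre+ libraries above both Cre- libraries, where 9.9% of 16027 genes had that order. The question here was whether the genotype difference was also present in cells that the choice of genes did not use. No gene was called higher in Cre+ at an adjusted p under 0.05 with edgeR (0%), and 372 genes had an unadjusted p under 0.05 in either direction. DESeq2 called 16, all of them lower in Cre+. Scgb2b27 was at 5.95 and 4.03 CPM in Cre- and at 9.34 and 47.7 CPM in Cre+, a difference of 2.77 on the log2 scale (SE 0.92, adjusted p = 1.00). In replicate 4, barcodes with at most 100 UMIs, which are mostly empty droplets, had Scgb2b27 at 864 CPM and Car6 at 121 CPM, and 730 of the 826 Scgb2b27 UMIs of its T cells were in 1 cell. The part of free RNA in the non-epithelial level was not tested.

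The other non-epithelial differences were 1.10 (SE 0.84) for Smpdl3b, 0.74 (SE 0.65) for Car6, 0.31 (SE 0.30) for Serpinb8 and -0.49 (SE 0.41) for Galnt15 on the log2 scale, each with an adjusted p of 1.00. Serpinb8 had 15.4 and 22.3 CPM in Cre- and 25.9 and 16.6 CPM in Cre+, and Galnt15 had 10.6 and 7.41 CPM in Cre- and 8.13 and 3.56 CPM in Cre+, so the groups overlapped for both. Clic3 had too few UMIs to be tested. Without Cre+ replicate 2 edgeR called 3184 genes, among them Scgb2b27 (adjusted p = 0.00127), Smpdl3b (1.86, adjusted p = 0.00258) and Galnt15 (-1.04, adjusted p = 0.0368). This fit had replicate 4 alone as the Cre+ side and assumed that it varied like the Cre- libraries. Without Cre+ replicate 4 the Smpdl3b difference was -0.62, and 132 genes were called.

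Nonagouti was at 0.117 and 0.136 CPM in Cre- epithelium and at 518 and 108 CPM in Cre+ epithelium, and 96.8% and 93.1% of its Cre+ UMIs were epithelial. At 2000 UMIs per cell it was found in 1168 of 2445 epithelial cells of Cre+ replicate 2 and 309 of 2870 of replicate 4, and in 0 of 2300 and 0 of 2356 Cre- epithelial cells, which allows up to 0.130% and 0.127% of cells with a UMI at this depth. At full depth 10 of 2466 and 7 of 2610 Cre- epithelial cells had one. Macrophages of the Cre+ libraries had it in 1.70% and 0.48% of thinned cells. It was also found in Cre+ T cells (70.8 and 36.1 CPM, against 0 in both Cre- libraries) and in Cre+ NK cells (76.8 and 100 CPM, against 0). Fibroblasts had it in both genotypes, at 38.9 and 11.6 CPM in Cre- and 30.4 and 13.8 CPM in Cre+, and stromal cells held 93.8% and 86.3% of the Cre- UMIs.

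Scgb2b27 was found with nonagouti in the same cell in 344 cells of Cre+ replicate 2, where 285 would share them if both genes were spread independently, and in 111 cells of replicate 4 against 63.9. It was present in 29.5% of nonagouti-positive cells (exact binomial interval 26.9% to 32.2%) and 19.8% of nonagouti-negative cells (17.7% to 22.1%) of replicate 2, and in 35.9% (30.6% to 41.6%) and 18.8% (17.3% to 20.4%) of those of replicate 4. Counted within clusters, the ratio of shared cells to independent spread was 1.14 and 1.37. Car6 had 97 shared cells against 93.6 in replicate 2 and 46 against 23.6 in replicate 4. Smpdl3b had 27 shared cells against 22.9 in replicate 2 and 17 against 10.3 in replicate 4. Serpinb8 had 35 against 30.1 in replicate 2 and 3 against 5.06 in replicate 4, Galnt15 12 against 13.4 and 4 against 2.80, and Clic3 3 against 4.30 and 2 against 2.26. Shared cells were more than independent spread gives in both Cre+ libraries for Scgb2b27, Smpdl3b and, by a small margin in replicate 2, Car6. The share of all genes with such a surplus was not counted. For Smpdl3b the binomial intervals of positive and negative cells overlapped, at 1.53% to 3.35% and 1.02% to 2.50% in replicate 2. In replicate 4 they were 3.24% to 8.66% and 2.45% to 3.83%. The Car6 ratio in replicate 2 was 1.04, and it was 0.986 at 5000 UMIs per cell and 0.989 within clusters.

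**Figure D4:**
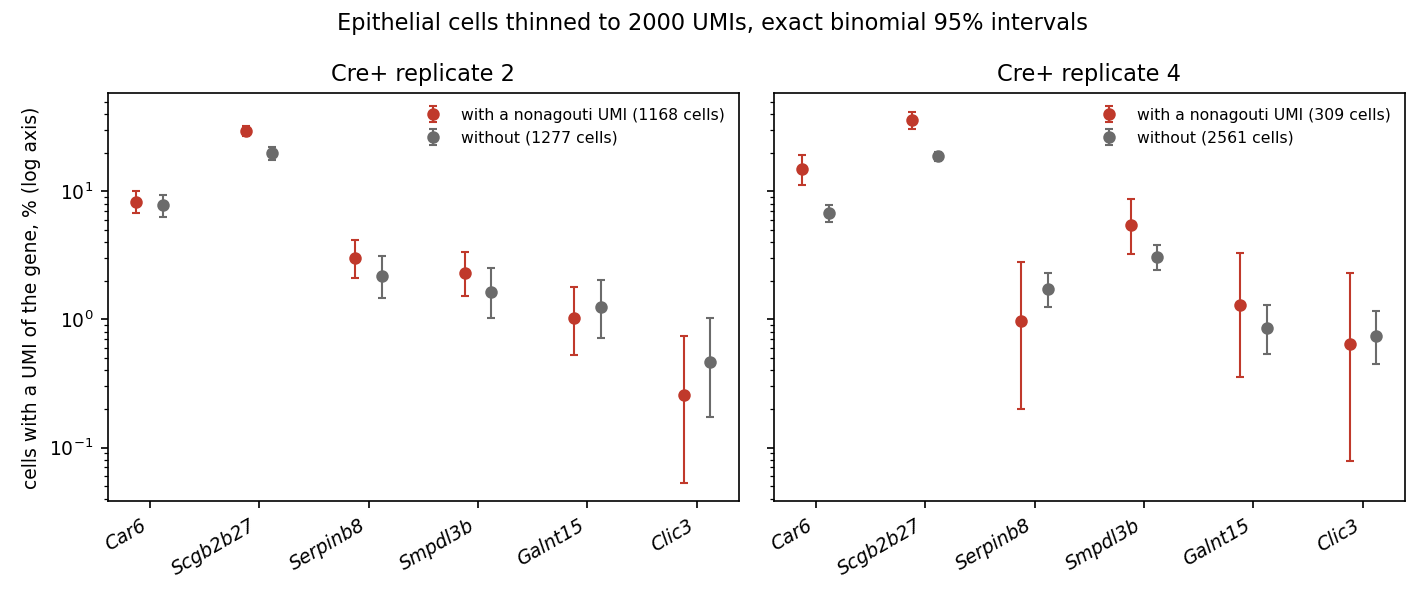
Share of epithelial cells with a UMI of each member, in percent on a log axis, among cells with and without a nonagouti UMI in each Cre+ library, after thinning to 2000 UMIs. Points are shares and bars are exact binomial intervals at 95%, and the intervals are apart for Scgb2b27 in both libraries and for Car6 in replicate 4.

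The summed counts of nonagouti-positive and nonagouti-negative cells were compared over the 2 Cre+ libraries with edgeR. Both positive sums lay above both negative sums for 9.73% of 10908 genes, and no gene was called higher (0%). In either direction 45 had an unadjusted p under 0.05, and DESeq2 called 2, both lower in positive cells. Scgb2b27 was at 649 CPM in positive and 556 CPM in negative cells of replicate 2 and at 2311 and 1016 CPM in those of replicate 4. Its difference was 0.89 on the log2 scale (SE 0.76, adjusted p = 1.00). With the library as a block the difference was 0.68 with an adjusted p of 0.000253, and 144 genes were called. That fit had a positive and a negative sum for each of the 2 Cre+ libraries, so its p says little about the spread between mice. Smpdl3b differed by 0.53 (SE 0.67), Car6 by 0.27 (SE 0.82), Galnt15 by -0.08 (SE 0.61), Serpinb8 by -0.16 (SE 0.59) and Clic3 by -0.50 (SE 1.01), each with an adjusted p of 1.00.

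Among pairs of members, Car6 and Scgb2b27 were found together in 35 and 51 thinned Cre- cells and in 99 and 145 thinned Cre+ cells, which was 2.78, 2.09, 2.07 and 3.20 times the number that independent spread would give. This pairing was thus present in both genotypes. Serpinb8 and Clic3 shared 7 cells of Cre+ replicate 4, 20.4 times that number, and no cell of the other libraries.

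Epithelial classes were compared by edgeR with the remaining epithelium of each library with at least 20 cells of the class, which was 3 libraries for alveolar cells, Cre+ replicate 4 having too few, and 4 libraries for basal and cycling cells. The classes were defined by clusters of the same cells, so the calls describe the classes and do not test them. In alveolar cells, where 0.0525% of genes were called higher, Car6 was higher by 1.94 on the log2 scale (SE 0.31, adjusted p = 0.0574) and was not called. Its direction turned when the all-cell clusters, from which the epithelial cells were taken, were built without integration (-0.11). The alveolar class then held other cells. A cluster of 1513 cells led by Chil1 and Spp1 was named alveolar, and a cluster of 1057 cells led by Wap and Lalba was not. In the main run the clusters led by these genes were named the other way. With the library as a block, 1526 alveolar genes were called in place of 87, Car6 among them (adjusted p = 0.0153). In basal cells, where 7.45% of genes were called lower, Car6 differed by -4.87 (SE 0.63, adjusted p = 0.00273) and Scgb2b27 by -4.31 (SE 0.70, adjusted p = 0.00636). The Scgb2b27 call was lost without Cre- replicate 1 or Cre- replicate 3 (adjusted p = 0.0602 and 0.0716). In cycling cells, where 5.44% were called lower, Galnt15 differed by -3.72 (SE 0.49, adjusted p = 0.00466) and Serpinb8 by -1.64 (SE 0.43, adjusted p = 0.0451). Cycling cells held only 1 and 3 Galnt15 UMIs in Cre- replicates 1 and 3, and 1 in each Cre+ library. The size of the Galnt15 difference is therefore uncertain. The Galnt15 call was lost without either Cre- library (adjusted p = 0.0673 and 0.0686), and the Serpinb8 call without either Cre- library or Cre+ replicate 4 (adjusted p = 0.160, 0.157 and 0.0643). With the library as a block, 4901 cycling genes were called in place of 1757, and the adjusted p was 0.00221 for Galnt15 and 0.00977 for Serpinb8.

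The relatives of the members were counted without the members themselves. In epithelial sums, both Cre+ libraries lay above both Cre- libraries for 1 of 10 carbonic anhydrases tested and 1 of 5 secretoglobins. The same order held for 1 of 7 clade B serpins, 1 of 5 sphingomyelinases and 2 of 14 GalNAc transferases. It held for 1 of 4 chloride intracellular channels, and edgeR called none of these relatives. These counts stand beside the 14.6% of all genes with that order. The median difference of the relatives was 0.05, 1.72, 0.03, -0.11, -0.30 and 0.12 on the log2 scale in the same order, beside 0.01 over all genes. The secretoglobin in order besides Scgb2b27 was Scgb1b27, the alpha partner, at 2.85 and 3.61 CPM in Cre- and at 11.9 and 1365 CPM in Cre+, where replicate 4 stood far above the other 3 libraries. Of the other relatives in that order, Car3 differed by 4.75 (SE 1.20), Clic5 by 3.60 (SE 0.81) and Serpinb11 by 3.55 (SE 1.25). Smpdl3a (0.23, SE 0.17), Galnt7 (0.33, SE 0.19) and Galnt3 differed less. Among the relatives with the highest levels, Car12 differed by 1.00 (SE 0.81) and Car2 by -1.09 (SE 0.88), Serpinb6a by 0.03 (SE 0.24) and Serpinb5 by 0.27 (SE 0.46). Galnt3 differed by 0.39 (SE 0.21), Galnt1 by -0.36 (SE 0.21), Clic1 by -0.33 (SE 0.22) and Clic4 by -0.17 (SE 0.42).

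Between compartments, 26.5% of all genes were higher and 27.8% lower in the epithelium. The members were again left out of the family counts. Of 4 secretoglobins tested 3 were higher in the epithelium, among them Scgb2b26 by 6.77 and Scgb1b27 by 5.91 on the log2 scale. Of 11 carbonic anhydrases 4 were higher, among them Car12 by 4.28, and 2 were lower, Car4 by -3.65 and Car7 by -1.15. Of 9 clade B serpins 2 were higher, Serpinb11 by 4.95 and Serpinb5 by 4.67, and 6 were lower, as Serpinb8 was, among them Serpinb9b by -5.18. Of 14 GalNAc transferases 1 was higher, Galnt3 by 2.96, and 4 were lower, as Galnt15 was, among them Galnt16 by -5.99. The sphingomyelinases split into 1 higher and 2 lower of 6, and the chloride intracellular channels into 1 higher, Clic6 by 4.53, and 1 lower, Clic4 by -1.21, of 4.

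Over 65 sums of a library and a cell class, the genes whose log2 level followed each member most closely are given as a description, since sums of 1 library share its depth and cells. For Car6 they were Xbp1 (Pearson r = 0.83), a factor of secretory cells, Scgb2b27 (0.81) and Spdef (0.78), another factor of secretory epithelium. For Scgb2b27 they were Ddo (0.82), Car6 (0.81) and AI463170 (0.80). For Clic3 they were Cyp4f39 (0.84), Krt78 (0.83), a keratin of squamous epithelium, and Trex2 (0.81). For Galnt15 they were Thsd7a (0.82), Hoxd9 (0.81) and Atoh8 (0.81), and for Serpinb8 Dhrs3 (0.73), Slc9a4 (0.73) and Tom1 (0.72). Smpdl3b had the weakest likeness among the members, with Gm48614 at 0.67. Nonagouti was not among the nearest 3 genes of any member, and its own nearest were Pcbd1 (0.61), Dcaf12l1 (0.61) and Eci3 (0.60).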

How the data were processed

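Droplet single-cell RNA of 4 mouse mammary tumors was analysed from the UMI counts that the authors deposited, with no normalization. Per the file headers, replicates 1 to 3 came from Cell Ranger 6.1.2 as called cells, and replicate 4 from Cell Ranger 4 as all 2582424 barcodes. The submitters' processing notes name the human build hg38, whereas the gene identifiers are of mouse, so no gene coordinate was taken from the files. The members and gene lists were chosen with earlier results of these data known.

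Barcodes with at least 1000 UMIs and at most 20% mitochondrial UMIs were kept. Counts were scaled to 10000 per cell, and 30 principal components of 2000 variable genes were integrated over libraries with a Harmony-type correction. Cells were clustered with leidenalg 0.10.2 on 20 neighbors at resolution 1. Epithelial cells were clustered again at 0.6, on their own principal components and without integration. The members and nonagouti were left out of the genes that built the clusters. A cluster was named when at least 3 listed markers were detected in 10% of its cells at 2-fold or more over the median of the other clusters. No other class could have more markers among its 10 leading genes. Epithelial classes, and shallow clusters of all cells, also needed 1 marker among those genes. Clusters of 2094 and 628 cells were thus named epithelial with no epithelial marker among them. The rule for names was set with the clusters in view, and 600 cells stayed unnamed. Doublets were kept in the main analysis and removed in an alternative (194 to 406 per library).

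UMIs were summed per library and class and tested with edgeR 4.0.16 (R 4.3.3, glmQLFit, glmQLFTest, TMM, filterByExpr). A gene was called at a Benjamini-Hochberg adjusted p under 0.05, taken over every gene in the fit. Alternatives were DESeq2 1.42.0, no filter, doublet removal, all-cell clusters without integration, and upper limits of 5000 genes and 30000 UMIs. Others were an order-of-magnitude depth rule for replicate 4 and leaving out each library. Leaving out the hormone-sensing, squamous or other-lineage clusters and the top 1% of cells was added after seeing the data. Comparisons within a library are paired because both sums come from the same library, and the fit with the library as a block was an alternative. The members were among the genes of the epithelial genotype fit. They were chosen on that contrast, so their p-values in it are not used or given. Intervals are exact Poisson or binomial at 95% and cover counting error alone. Where a library had no UMI, 3 counts set its floor. The named genes were the members, nonagouti, Frmd8, relatives from 6 family lists and the 3 genes nearest to each member in level. Named were up to 3 relatives in each direction past the threshold, otherwise the 2 with the highest level, of which not every one is printed. The relatives with both Cre+ libraries above both Cre- libraries in epithelial sums are named too. The scripts were tested on simulated counts. At the dispersion of these data the epithelial genotype fit recovered 0% of set log2 changes of 1, 5.5% of 2 and 77.5% of 3. That 0 genes were called is therefore no evidence of equal levels. Promoter windows were read from RefSeq (GRCm38.p6). Python 3.11.15, numpy 2.4.6, scipy 1.17.1, pandas 2.3.3 and matplotlib 3.10.9 were used.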

Additional observations from a re-analysis of the deposited data

Results flagged for a closer look

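Smpdl3b stood out because its compartments lay in opposite order in the 2 genotypes. The epithelial CPM over the non-epithelial CPM was 0.758 and 0.487 in Cre- replicates 1 and 3 and 3.59 and 1.92 in Cre+ replicates 2 and 4. The difference was not tested, and the epithelial level in it is the one the gene was chosen on.

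Cells outside every named lineage, which enter no comparison of the report, also carried Car6 at 6.62 and 4.88 CPM in Cre- and 19.1 and 27.2 CPM in Cre+. In the same 600 cells Scgb2b27 was at 9.93 and 34.2 CPM in Cre- and 57.2 and 187 CPM in Cre+. These cells were shallow, at a median of 0.122 times the median depth of their library. Their best marker list was the epithelial one, with 5 of 8 markers detected. They stayed unnamed because they were shallow and no epithelial marker was among their leading genes. The Car6 levels rested on few UMIs, in both Cre- libraries fewer than the 3 counts used as a floor. The part of free RNA or of doublets in these levels was not tested.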

How the results depend on the processing

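No paired analysis was possible for the genotype comparisons because the Cre- and Cre+ libraries share no replicate number. In the epithelial genotype comparison the 0 genes called by edgeR (410 at an unadjusted p under 0.05) became 68 with DESeq2 and 0 to 6 with a library left out. In the non-epithelial one, 0 became 16 with DESeq2 and 0 to 3184 with a library left out, with 3184 without Cre+ replicate 2 and 132 without Cre+ replicate 4. The count for nonagouti-positive against nonagouti-negative cells was 2 with DESeq2, 71 with no filter and 144 with the replicate block. The 87 alveolar calls became 1469 with DESeq2, 962 with no filter, 1526 with the replicate block, 0 without integration, 4 under the upper limits and 0 to 1825 with a library left out (787 and 1825 without Cre- replicates 1 and 3, 0 without Cre+ replicate 2). The 2503 basal calls became 956 under the upper limits and 531 to 4279 with a library left out (546 and 531 without Cre- replicates 1 and 3, 4279 without Cre+ replicate 4). The 1757 cycling calls became 3690 with DESeq2, 4901 with the replicate block, 3886 under the upper limits and 0 to 3699 with a library left out (0 without either Cre- replicate, 3699 without Cre+ replicate 4). The members with shared nonagouti cells above independent spread in both Cre+ libraries were 5 in place of 3 at full depth. Cells were not brought to 1 depth there, and the share of all genes with such a surplus was not counted. Frmd8, not a member, also had ratios of 1.08 and 1.59 at full depth in replicates 2 and 4, against 0.888 and 0.357 at 2000 UMIs. Nothing is therefore read from the higher count. The other 54 settings of the counts checked stayed within 1.5 times the value reported, the epithelial against non-epithelial count of 8932 under every setting run. Which calls were kept was not counted, and the cause of these shifts was not tested.

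The alveolar fit holds no sum of Cre+ replicate 4, so that library could not be left out of it. Several log2 differences turned direction. For nonagouti-positive cells under the upper limits Car6 was -0.16 and Serpinb8 0.0063, and a ratio in 1 library, with no test, gave Car6 -0.016 without Cre+ replicate 4 and 0.44 without Cre+ replicate 2, Serpinb8 0.52 and -1.34, and Galnt15 -0.46 and 0.44. In alveolar cells Car6 was -0.11, Scgb2b27 -0.013 and Serpinb8 0.10 without integration, where the alveolar name went in part to other clusters. Alveolar Serpinb8 was 0.46 under the upper limits, and Clic3 was -4.60 to 1.38 with a library left out (1.38 without Cre- replicate 1). In basal cells Galnt15 was -0.15 without Cre+ replicate 2 and up to 1.10 with another library left out. In the epithelial genotype comparison Clic3 was -0.42 without squamous cells and -0.13 without Cre- replicate 3 (3.89 without Cre- replicate 1). Smpdl3b between compartments was -0.52 under the upper limits and -0.25 without Cre+ replicate 2 (up to 0.50 with another library left out), and in the non-epithelial genotype comparison it was -0.62 without Cre+ replicate 4 and 1.86 without Cre+ replicate 2. The epithelial Galnt15 call was also lost with doublets removed (adjusted p = 0.0525), under the upper limits (0.123) and with the depth rule for replicate 4 (0.0525). Depth limits Clic3 and Galnt15 most, with as few as 20 and 52 epithelial UMIs in 1 library.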
